A study of Mus musculus with 36 samples.

Results

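The genes described here are 9 interferon-induced mouse genes: the Ifit genes Ifit1, Ifit2, Ifit3 and Ifit3b, and the genes of ISG15 conjugation, Isg15, Uba7, Ube2l6, Herc6 and Usp18. They were chosen by name, with earlier results of these data known. All 9 of them were found among the 54232 Ensembl gene identifiers in the files. They also passed the filter on low counts, which left 12957 genes. RNA was sequenced from bone marrow-derived macrophages (BMDM), which are marrow cells grown for 5 days in M-CSF (a macrophage growth factor) at 20 ng/mL. The 36 libraries formed 6 groups of 6: NOS1 KO without LPS, NOS1 KO with 100 ng/mL LPS for 2 h or for 8 h, and WT without LPS, with LPS for 2 h or for 8 h. LPS, lipopolysaccharide, is a cell wall product of Gram-negative bacteria, and Nos1 encodes neuronal nitric oxide synthase. The series' text writes the wild-type strain as C65BL6. Replicate 6 of each group, 6 libraries in all, has its genotype written as BMDM WT or BMDM NOS1 KO, and was grouped with the other libraries of that genotype. Without these 6 libraries each count of the 9 genes called between groups was as given here. The labels used here give no allele for the knockout and no age, sex, animal or batch.

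IFIT proteins bind viral and other foreign RNA through repeated helical motifs, and IFIT1 blocks translation of RNA whose cap lacks 2′-O-methylation. ISG15 is a ubiquitin-like protein that is joined to other proteins in a 3-step cascade: UBA7 is the activating enzyme, UBE2L6 the conjugating enzyme and, in mouse, HERC6 the main ligase, while USP18 removes ISG15 and also dampens signalling from the type I interferon receptor. In macrophages, LPS is sensed by TLR4, which through TRIF and IRF3 turns on interferon beta. Interferon beta then acts back on the cells through its receptor and a factor complex with IRF9 that binds interferon-stimulated response elements (ISRE), and IRF3 itself can turn on some of these genes directly.

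The 4 Ifit genes lie next to each other on chromosome 19 of mm10, all on the plus strand: Ifit2 at chr19:34550694-34576419, Ifit3 at chr19:34583531-34588731, Ifit3b at chr19:34607970-34613401 and Ifit1 at chr19:34640871-34650009. The others are spread over the genome. Isg15 lies at chr4:156199424-156200818 on the minus strand, and on the plus strand Uba7 lies at chr9:107975505-107984060, Ube2l6 at chr2:84798828-84810335, Herc6 at chr6:57581000-57664632 and Usp18 at chr6:121245906-121270917. RefSeq promoter windows (GRCm38.p6, 250 bases before to 50 after a start site) were at hand for 8 of the 9 genes, all but Usp18. The ISRE core (GAAA, any 2 bases, GAAA), searched on both strands, was found in 4 of these 8: 2 matches each in Ifit1, Ifit3 and Ifit3b, and 3 matches in Isg15 that overlap each other. Of all 32851 windows of this length, 3.44% held a match and 0.225% held at least 2. The stretches with the matches are shown, 5′ to 3′ on the gene's strand and with the matches in capitals, because they are what these 4 genes share. In the Ifit genes they lie on the opposite strand and so read as TTTC, any 2 bases, TTTC.
Ifit1, chr19:34640765-34640833, plus strand: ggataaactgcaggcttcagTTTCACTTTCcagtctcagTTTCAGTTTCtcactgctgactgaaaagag
Ifit3, chr19:34583353-34583436, plus strand: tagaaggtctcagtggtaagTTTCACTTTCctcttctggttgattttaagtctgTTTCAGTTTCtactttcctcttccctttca
Isg15, chr4:156200855-156200916, minus strand: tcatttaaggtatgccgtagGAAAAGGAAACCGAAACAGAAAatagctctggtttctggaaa
The Ifit3b stretch, at chr19:34607749-34607832, has the same 84 letters as that of Ifit3, within a run of 169 identical bases of the 2 windows. No match to these letters was found in the windows of Ifit2 (2 start sites), Uba7, Ube2l6 and Herc6.

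Total counts per library ran from 8953489 to 18482551. Nos1, the gene named by the knockout, went against the label: it was at 2.46 to 5.07 CPM (counts scaled to library size) in KO-labelled control libraries, against 0 to 0.255 CPM in WT-labelled control libraries. The groups are therefore called KO-labelled and WT-labelled throughout, and every direction between them holds for the labels only. The libraries fell into 2 unlabelled sets of 18, called A and B, along the first principal component of their values with group means removed, which held 34.6% of the variance. Replicates 1, 2 and 6 of each group were in set A and replicates 3, 4 and 5 in set B, and all 36 libraries kept their place when the 9 genes and the interferon lists were left out. Values within the sets are therefore given beside the comparisons of the labels. WT-labelled replicate 1 at each time, 3 libraries in all, had 0 counts of the Y-linked gene Ddx3y. In 3 WT-labelled libraries treated with LPS, 7 skeletal muscle genes summed to over 100 CPM. They summed to 152 CPM (2 h, replicate 5), 414 CPM (2 h, replicate 6) and 3379 CPM (8 h, replicate 5). The last of these libraries also had 204 CPM of 6 stromal genes, against 60.1 and 59.3 CPM in replicates 3 and 4 of its group. Macrophage markers fitted the label, with 12318 to 21056 CPM over 7 genes such as Csf1r and Lyz2, while 6 T and NK cell genes summed to at most 0.539 CPM and 5 B cell genes to at most 5.12 CPM.

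All 9 genes rose strongly with LPS by 8 h under both labels, by 4.32- to 161-fold in KO-labelled and by 6.22- to 563-fold in WT-labelled libraries. At 2 h the Ifit genes and Isg15 had already risen, by up to 24.7-fold in KO-labelled and up to 94.8-fold in WT-labelled libraries, both for Ifit1. The fold changes of Uba7, Ube2l6, Herc6 and Usp18 at 2 h were smaller than those of any of these 5, at 1.20 to 1.88 in KO-labelled libraries, where Herc6 alone of these 4 was called, and at 1.46 to 3.35 in WT-labelled libraries, where all of them but Uba7 were. By edgeR's quasi-likelihood test with Benjamini-Hochberg adjustment over all genes (called: adjusted p below 0.05), 9 of 9 were called higher at 8 h in KO-labelled libraries, where 34.9% of all genes tested were, and 9 of 9 in WT-labelled libraries, where 34.2% were. At 2 h, 6 of 9 were called higher in KO-labelled libraries against 18.9% of all genes, and 8 of 9 in WT-labelled libraries against 20.3%. Between 8 h and 2 h, 9 of 9 rose under each label, where 31.5% of genes in KO-labelled and 30% in WT-labelled libraries were called higher. The median log2 fold change of the 9 at 8 h was 5.31 in KO-labelled and 7.66 in WT-labelled libraries, beside -0.06 for all genes tested in each. The gap between the labels came from set B. There the median was 4.52 in KO-labelled and 8.14 in WT-labelled libraries, against 7.63 and 7.46 in set A. Values of all libraries together lie between those of the sets. With 6 libraries in a group, nothing in the labels says that they came from separate cultures or animals, so p-values reflect only how much the libraries of a group vary, and that variation may be technical. In bulk RNA, more cells with a transcript and more of it per cell cannot be told apart.

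**Figure D1:**
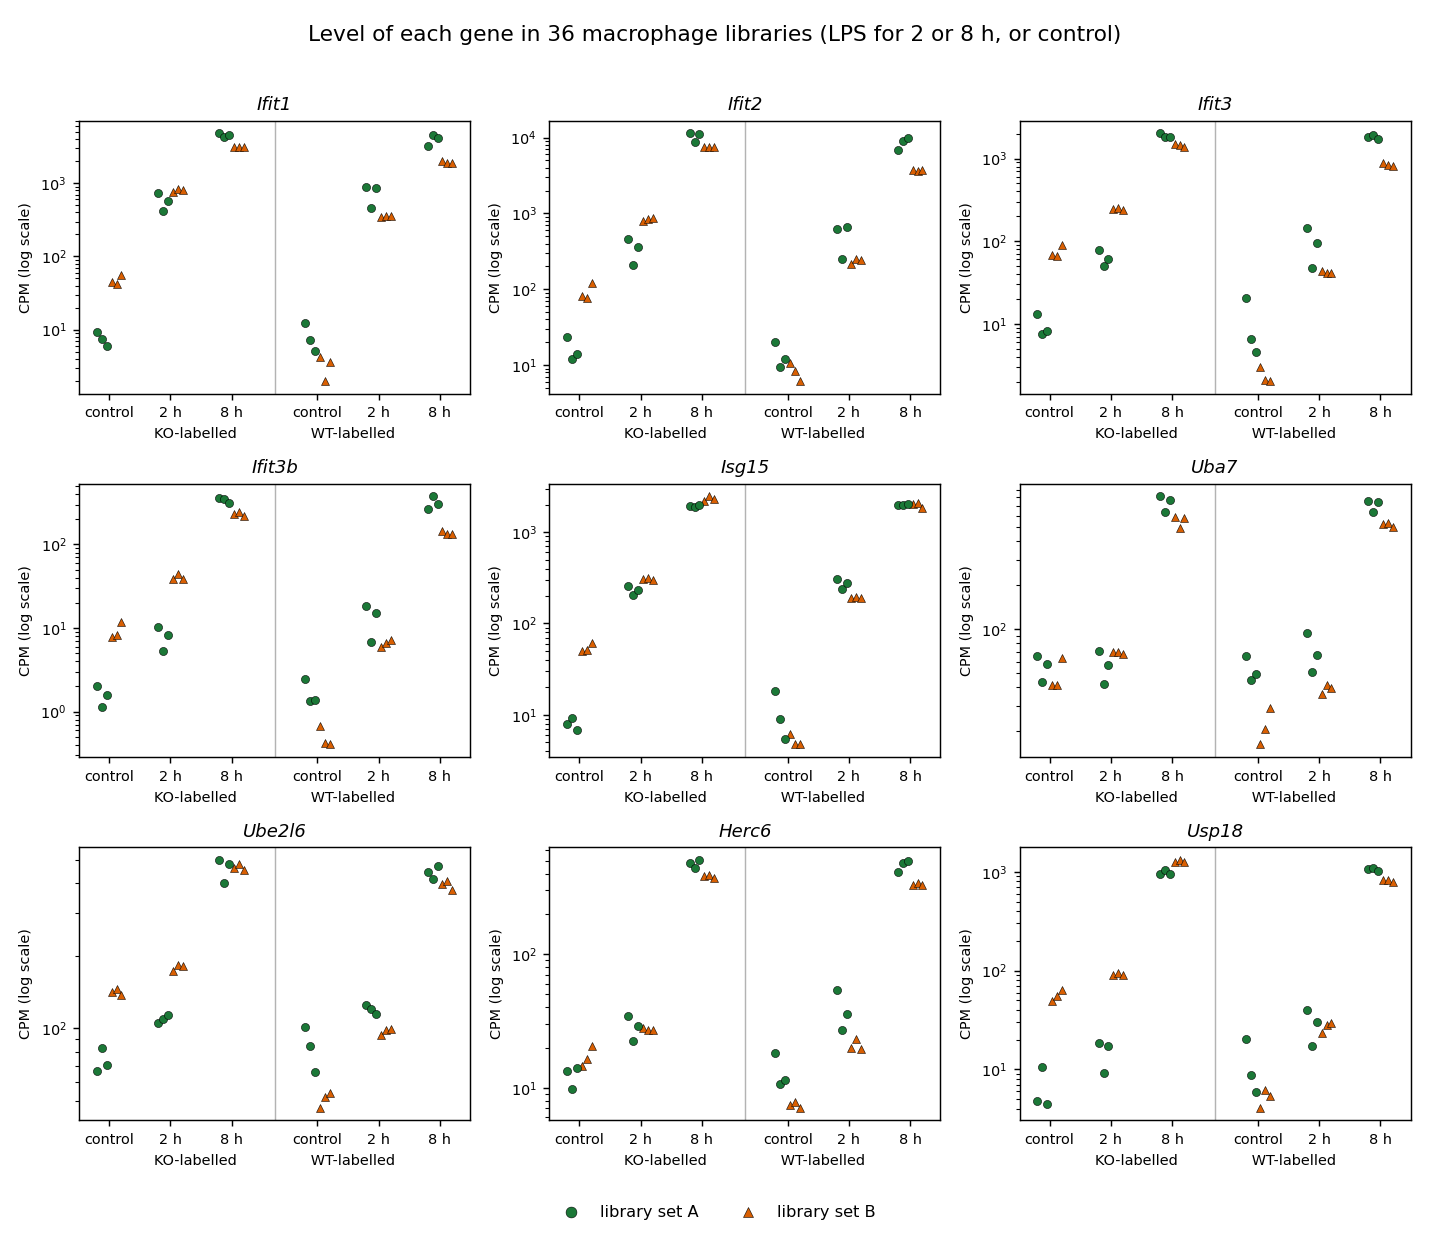
CPM of each gene (log scale) in every library, KO-labelled groups left of WT-labelled ones and time running from control to 2 h and 8 h, with circles for library set A and triangles for set B. All 8 h points lie above all control points, and in the KO-labelled controls the set B points of every gene but Uba7 lie above those of set A.

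Ifit1 had the steepest early rise. In KO-labelled libraries it was at 9.21, 7.55, 44.9, 41.5, 56.6 and 5.95 CPM in controls (replicates 1 to 6), at 735, 415, 756, 837, 799 and 564 CPM at 2 h, and at 4843, 4249, 3147, 3171, 3090.1 and 4580.3 CPM at 8 h. In WT-labelled libraries it was at 12.5, 7.11, 4.25, 1.98, 3.64 and 5.14 CPM in controls, at 879, 462, 340.5, 361, 356 and 873 CPM at 2 h, and at 3257, 4536, 1995, 1908, 1889 and 4181 CPM at 8 h. No library of a later time overlapped with an earlier one under either label, and replicates 3, 4 and 5 stood apart in the KO-labelled controls as the high ones and at 8 h under both labels as the low ones. Its log2 fold change at 2 h was 4.62 ± 0.48 in KO-labelled (SE, n = 6 each, edgeR adjusted p = 1.11e-09) and 6.57 ± 0.54 in WT-labelled libraries (adjusted p = 2.93e-12). At 8 h it was 7.11 ± 0.54 in KO-labelled (adjusted p = 1.03e-13) and 9.01 ± 0.59 in WT-labelled libraries (adjusted p = 2.37e-15). Within set A the 2 h log2 fold change of Ifit1 was 6.23 in KO-labelled and 6.49 in WT-labelled libraries. Within set B it was 4.06 and 6.80.

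Ifit2, whose product joins IFIT1 and IFIT3 in a complex, reached the highest CPM of the 9 genes. In KO-labelled libraries it averaged 55.3 ± 45.4 CPM in controls, 591 ± 282 CPM at 2 h and 8922 ± 1877 CPM at 8 h (SD, n = 6). In WT-labelled libraries it averaged 11.1 ± 4.73, 373.8 ± 209 and 6212 ± 2909.9 CPM. At 8 h the WT-labelled libraries split by set, with 6958, 9124 and 10038 CPM in set A and 3783, 3679.7 and 3691 CPM in set B. Its log2 fold change at 8 h was 7.33 ± 0.58 in KO-labelled and 9.14 ± 0.63 in WT-labelled libraries.

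Ifit3 and Ifit3b are near copies, and their values are uncertain: of the 50-base stretches of the annotated Ifit3 transcript, 51.2% also occur in Ifit3b, and how such reads were counted is not given in the sources used here. Ifit3b took 12.6% to 14.5% of the counts of the pair on average in the 3 KO-labelled groups and 13.0% to 17.2% in the 3 WT-labelled ones. Ifit3 averaged 41.8 ± 36.3, 154 ± 100.2 and 1668 ± 260.4 CPM in KO-labelled libraries at control, 2 h and 8 h, and 6.43 ± 7.05, 68.9 ± 42.2 and 1334 ± 535 CPM in WT-labelled libraries (SD, n = 6). Ifit3b averaged 5.44 ± 4.45, 24.2 ± 17.98 and 285 ± 62.4 CPM in KO-labelled libraries, and 1.12 ± 0.796, 10.0 ± 5.34 and 226 ± 104 CPM in WT-labelled libraries. For both genes the 2 h libraries overlapped the controls in KO-labelled but not in WT-labelled libraries. Of the 50-base stretches of Ifit1, 7.06% occur in Ifit1bl2, which at 8 h reached 13.7 ± 3.98 CPM in KO-labelled libraries and 11.7 ± 0.562 CPM in WT-labelled ones.

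Isg15, the modifier itself, rose in the same early manner. In KO-labelled libraries it was at 7.98, 9.28, 50.1, 51.8, 61.6 and 6.82 CPM in controls, at 258, 204, 303, 314, 297 and 231 CPM at 2 h, and at 1960.0, 1872, 2195, 2465, 2304 and 1995 CPM at 8 h. In WT-labelled libraries it was at 17.97, 8.86, 6.11, 4.796, 4.72 and 5.49 CPM in controls, at 305, 238, 189, 194, 189 and 279 CPM at 2 h, and at 1987, 1971, 2047, 2085, 1825 and 2026 CPM at 8 h. Times did not overlap, and at 8 h the WT-labelled libraries of the 2 sets were at like levels, unlike those of the Ifit genes. Its log2 fold change was 3.09 ± 0.39 at 2 h and 6.08 ± 0.45 at 8 h in KO-labelled libraries, and 4.86 ± 0.43 and 7.96 ± 0.49 in WT-labelled libraries (SE, n = 6 each, all 4 called).

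The conjugation enzymes made most of their log2 rise after 2 h. Uba7, the activating enzyme, averaged 52.2 ± 11.3, 62.8 ± 11.4 and 646 ± 119.9 CPM in KO-labelled libraries at control, 2 h and 8 h, and 37.5 ± 19.0, 54.9 ± 22.4 and 616 ± 113 CPM in WT-labelled libraries (SD, n = 6). Its 2 h log2 fold change was not called under either label: 0.27 (95% interval -0.24 to 0.77, edgeR adjusted p = 0.451) in KO-labelled and 0.55 (0.04 to 1.05, adjusted p = 0.0811) in WT-labelled libraries. Ube2l6, the conjugating enzyme, had the highest mean of the 9 per length in controls and the smallest change at 8 h, averaging 107 ± 37.7, 144 ± 38.5 and 464 ± 34.3 CPM in KO-labelled libraries and 67.3 ± 21.5, 108 ± 13.3 and 419 ± 34.3 CPM in WT-labelled libraries. Its 2 h log2 fold change was 0.43 ± 0.19 in KO-labelled (edgeR adjusted p = 0.0762, not called) and 0.69 ± 0.19 in WT-labelled libraries (adjusted p = 0.00373). Herc6, the ligase, averaged 14.8 ± 3.58, 27.9 ± 3.94 and 430.0 ± 57.1 CPM in KO-labelled libraries and 10.4 ± 4.24, 29.9 ± 13.4 and 398.1 ± 75.9 CPM in WT-labelled libraries. It was called at 2 h under both labels, at 0.91 ± 0.22 in KO-labelled (adjusted p = 0.00108) and 1.52 ± 0.22 in WT-labelled libraries (adjusted p = 9.07e-07), with all 6 libraries at 2 h above every control. Herc6 shares 12% of its 50-base stretches with the overlapping gene Gm45193. Strand use in counting is not given in the sources used here, so reads from these shared stretches cannot be told apart. With their overlapping genes, Uba7 shares 2.52% (Gm20661) and Usp18 2.81% (Gm44148).

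Usp18, the ISG15 protease, had the largest change between 2 h and 8 h. In KO-labelled libraries it was at 4.78, 10.6, 49.2, 55.5, 62.9 and 4.44 CPM in controls, at 18.4, 9.27, 89.2, 93.6, 91.1 and 17.2 CPM at 2 h, and at 948, 1034, 1269.7, 1325, 1261 and 956 CPM at 8 h. In WT-labelled libraries it was at 20.2, 8.74, 4.08, 6.11, 5.39 and 5.83 CPM in controls, at 40.4, 17.1, 23.2, 28.1, 29.2 and 30.2 CPM at 2 h, and at 1066, 1082, 834, 835, 781 and 1013 CPM at 8 h. The 2 h libraries overlapped the controls under both labels, and in the KO-labelled controls and at 2 h replicates 3, 4 and 5 were several times above the others. The log2 fold change between 8 h and 2 h was 4.41 ± 0.58 in KO-labelled and 5.06 ± 0.60 in WT-labelled libraries (SE, n = 6 each, edgeR adjusted p = 4.82e-08 and 6.4e-09).

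**Figure D2:**
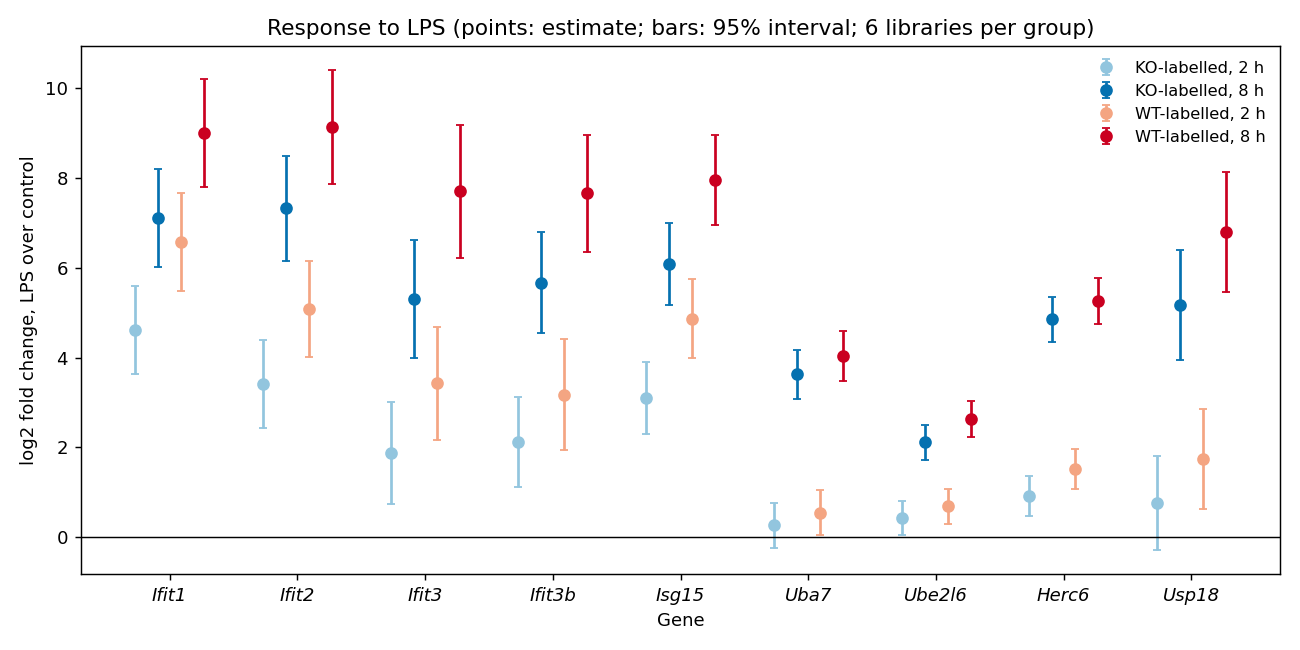
Log2 fold change of LPS over control for each gene, KO-labelled points left of WT-labelled ones and 2 h left of 8 h, with 95% intervals from fits to all 36 libraries. Ifit1 is highest at 2 h, at 4.62 in KO-labelled and 6.57 in WT-labelled libraries, while Uba7, Ube2l6, Herc6 and Usp18 stay below 2 at 2 h and lie above 2 at 8 h.

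The share of the 8 h log2 rise already present at 2 h was larger for the Ifit genes and Isg15 than for the enzymes. In KO-labelled libraries it was 65.0% for Ifit1, 50.8% for Isg15, 46.6% for Ifit2, 37.4% for Ifit3b and 35.4% for Ifit3, against 20.2% for Ube2l6, 18.8% for Herc6, 14.7% for Usp18 and 7.31% for Uba7. In WT-labelled libraries it was 72.9% for Ifit1, 61.1% for Isg15, 55.6% for Ifit2, 44.5% for Ifit3 and 41.4% for Ifit3b, against 28.9% for Herc6, 26.0% for Ube2l6, 25.6% for Usp18 and 13.6% for Uba7. Every Ifit gene and Isg15 stood above Uba7, Ube2l6, Herc6 and Usp18 under both labels, and also within each library set. This order holds on the log2 scale only. As a percentage of the 8 h CPM, the 2 h level was highest for Ube2l6, at 31.1% in KO-labelled and 25.9% in WT-labelled libraries. On that scale Uba7 (9.72% in KO-labelled and 8.91% in WT-labelled libraries) lay above Ifit2 (6.63% and 6.02%). Both terms of a share rest on the same controls, and the shares are a description without a test.

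Per kilobase of annotated exon, Isg15 lay below Ube2l6 in most controls and above it after LPS. In controls Ube2l6 was at 53.8 ± 18.9 CPM per kb in KO-labelled and 33.7 ± 10.8 CPM per kb in WT-labelled libraries, and Isg15 at 41.3 ± 34.1 and 10.6 ± 6.77 CPM per kb. At 8 h Isg15 stood at 2819 ± 302 CPM per kb in KO-labelled and 2633 ± 120.0 CPM per kb in WT-labelled libraries, the highest mean of the 9 genes, and Ube2l6 at 232 ± 17.2 and 209.9 ± 17.2 CPM per kb. The level of Isg15 relative to Ube2l6 was 0.655 ± 0.411 in controls, 5.05 ± 0.794 at 2 h and 12.2 ± 1.29 at 8 h in KO-labelled libraries, and 0.298 ± 0.0944, 5.61 ± 0.637 and 12.6 ± 0.899 in WT-labelled libraries. It was above 1 in 1 of 6 KO-labelled controls (replicate 5, 1.18) and in 0 of 6 WT-labelled ones. Over the other enzymes the mean of Isg15 was higher already in controls, and the ratio was highest at 2 h. Relative to Uba7 it was 5.71 ± 4.87, 38.1 ± 3.46 and 30.4 ± 8.61 in KO-labelled libraries at control, 2 h and 8 h, and 2.00 ± 0.821, 39.4 ± 6.05 and 29.3 ± 5.12 in WT-labelled libraries. Relative to Herc6 it was 23.9 ± 17.2, 119 ± 21.5 and 62.3 ± 13.7 in KO-labelled libraries, and 9.02 ± 2.24, 102 ± 18.1 and 63.2 ± 11.6 in WT-labelled libraries. Relative to Usp18 it was 4.31 ± 1.27, 36.6 ± 28.8 and 6.999 ± 0.538 in KO-labelled libraries, and 3.69 ± 0.945, 32.1 ± 10.1 and 7.98 ± 1.12 in WT-labelled libraries (SD, n = 6). At 8 h the order per kb behind Isg15 was the same under both labels: Ifit2 (2272 ± 478 in KO-labelled and 1582 ± 741 in WT-labelled libraries), Ifit1, Ifit3, Usp18, Ube2l6, Ifit3b, Uba7 and Herc6 (46.3 ± 6.14 and 42.8 ± 8.17). Neighbours in it with overlapping SD ranges in KO-labelled libraries were Isg15 and Ifit2, at the top, and Ifit3b (143 ± 31.2) and Uba7 (96.6 ± 17.9). In WT-labelled libraries they were Ifit2 and Ifit1 (1115 ± 453), Ifit1 and Ifit3 (765 ± 307), and Ifit3b (113 ± 51.8) and Uba7 (92.1 ± 16.9). The length used is the union over all annotated transcripts: 15 for Uba7 (6692 bases), 6 for Herc6 (9292 bases) and 1 for Isg15 (756 bases). Where the transcripts made are shorter than this union, the value per kb is too low. The ratio of Isg15 to such a gene is then too high, so order and ratios hold for these lengths only.

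**Figure D3:**
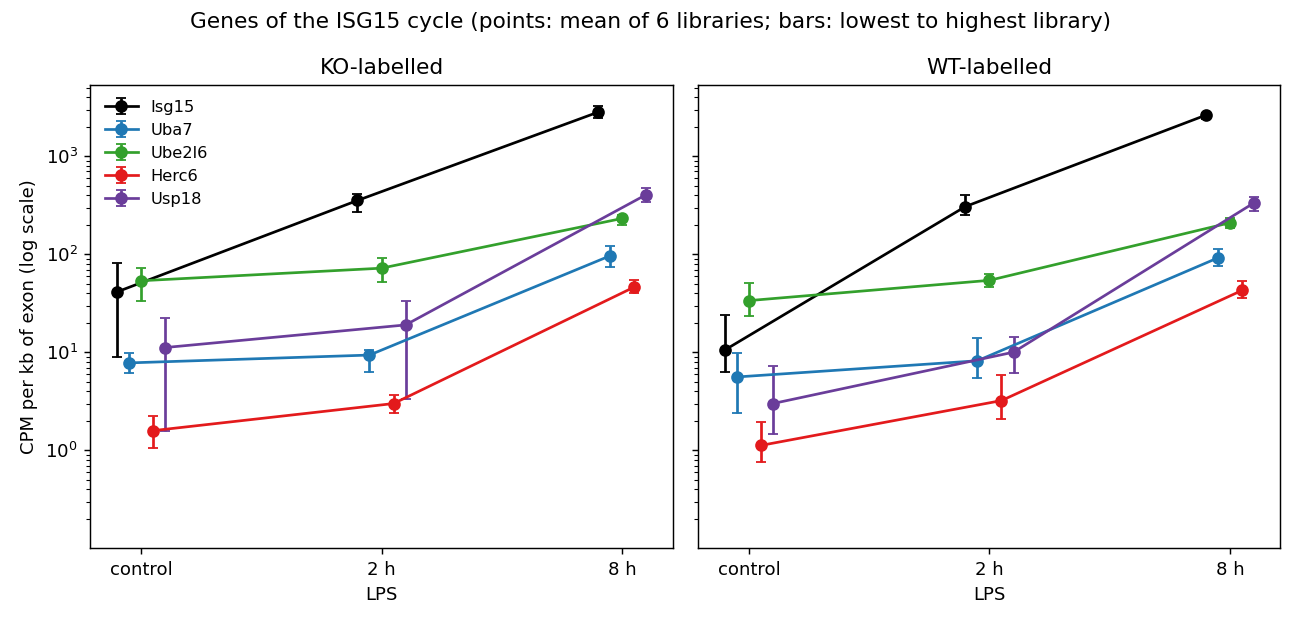
Mean CPM per kb of exon (log scale) of Isg15, Uba7, Ube2l6, Herc6 and Usp18 at control, 2 h and 8 h, KO-labelled left and WT-labelled right, with bars from the lowest to the highest of 6 libraries. Isg15 lies under Ube2l6 in the control means and above all the others at 2 h and 8 h, and Usp18 passes Ube2l6 between 2 h and 8 h.

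Between the labels, 3 of the 9 genes were called in unstimulated cells with all libraries, and within library set B all 9 were. With all libraries, Ifit1, Ifit2 and Isg15 were called higher in KO-labelled controls, 3 of 9 where 0.116% of all genes tested were called higher, with log2 fold changes of 2.27 ± 0.46 (edgeR adjusted p = 0.0337), 2.33 ± 0.47 (adjusted p = 0.0337) and 1.98 ± 0.39 (adjusted p = 0.0314). The other 6 were not called, with estimates of 0.48 (Uba7) to 2.71 (Ifit3, adjusted p = 0.0521). The median over the 9 was 1.98, beside -0.00 for all genes. For none of the 9 did the 6 KO-labelled controls lie wholly above the 6 WT-labelled ones, a separation that 0.116% of all genes showed. The number called was 0 when any of KO-labelled control replicates 3, 4 and 5 or WT-labelled control replicates 2 to 6 was left out, 4 without KO-labelled control replicate 1 or 6, and 5 without KO-labelled control replicate 2 or WT-labelled control replicate 1. It was 6 without the 3 WT-labelled libraries with 0 Ddx3y counts. DESeq2 called 7 of the 9 and limma-voom 0, and edgeR called 1 with the library set as a term. The shares of all genes called with these other tools, terms and left-out libraries are not given here. These numbers therefore show only how far the count moved with the fit.

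Within set B alone, all 9 were called higher in KO-labelled controls, where 7.04% of genes were. Ifit3 led, at 67.2, 65.8 and 89.0 CPM in the KO-labelled controls against 2.97, 2.10 and 2.02 CPM in the WT-labelled ones, a log2 fold change of 5.01 ± 0.14 (SE, n = 3 each, edgeR adjusted p = 4.16e-17). It was 4.26 ± 0.22 for Ifit3b, 3.92 ± 0.16 for Ifit1, 3.52 ± 0.20 for Ifit2, and 3.42 for both Isg15 (SE 0.10) and Usp18 (SE 0.11). The 3 other enzymes differed less, by 1.49 ± 0.05 for Ube2l6, 1.22 ± 0.10 for Herc6 and 1.17 ± 0.20 for Uba7. Within set A alone none of the 9 was called by edgeR, where 0.0469% of genes were called higher, and 0 had an unadjusted p below 0.05. There the estimates ran from -0.81 (Usp18, 95% interval -1.79 to 0.17) to 0.28 (Ifit2, -0.58 to 1.15). The sets also differed in spread: controls of set B lay closer to each other. The chi-squared per gene between 2 KO-labelled controls was 2.79 to 5.06 in set B and 8.76 to 35.4 in set A. Between 2 WT-labelled controls it was 3.59 to 8.42 and 12.7 to 18.7. The SE for Ifit3 was 0.14 in set B and 0.49 in set A, so numbers called in the 2 sets differ in precision. The sets were also cut from these same values, which lowers the spread within a set. Nothing in the labels says that the 3 libraries of a group within a set are separate cultures or animals. The p-values within a set therefore do not measure variation between animals. The KO- minus WT-labelled difference itself differed between the sets for 8 of 9 genes, where 1.57% of genes were called larger in set B. This was tested in a fit with 12 means, chosen after seeing the data, and the ninth gene was Uba7 (1.09 ± 0.30, edgeR adjusted p = 0.0623). The labels name no set, so what separates them cannot be told apart from whatever else they differ in.

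**Figure D4:**
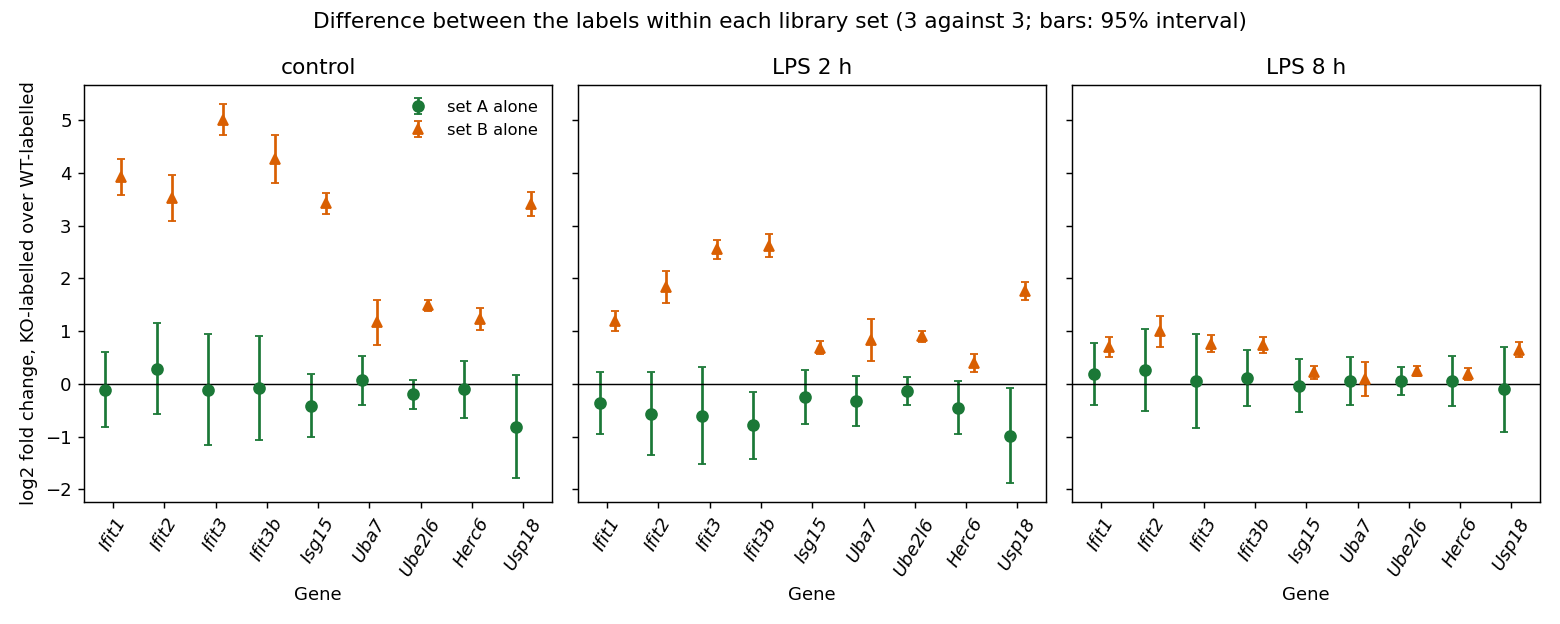
Log2 fold change of KO-labelled over WT-labelled libraries for each gene at control, 2 h and 8 h, from separate fits to set A (circles) and set B (triangles), with 95% intervals from 3 against 3 libraries. In controls the set B points run from 1.17 to 5.01 while those of set A run from -0.81 to 0.28, and at 8 h all lie between -0.10 and 0.999.

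Within set B the difference narrowed with LPS: its median over the 9 genes was 3.42 in controls, 1.19 at 2 h and 0.65 at 8 h. In set A the median was -0.11 in controls, -0.46 at 2 h and 0.05 at 8 h. With all libraries, 0 of 9 were called at 2 h and 0 of 9 at 8 h by edgeR, DESeq2 or limma-voom, where edgeR called 0.0232% and 0.1% of all genes in either direction. An unadjusted p below 0.05 was reached by 3 of the 9 at 2 h and 0 of the 9 at 8 h, and by 3.09% and 9.28% of all genes, with estimates between -0.10 and 1.28 at 2 h and between 0.07 and 0.52 at 8 h. Within set B, 9 of 9 were called higher in KO-labelled libraries at 2 h, where 6.73% of genes were, led by Ifit3b (2.62 ± 0.11) and Ifit3 (2.55 ± 0.09). Usp18 was there at 89.2, 93.6 and 91.1 CPM in KO-labelled against 23.2, 28.1 and 29.2 CPM in WT-labelled libraries. At 8 h in set B, 8 of 9 were called higher, where 18.4% of genes were, with at most 0.999 ± 0.14 for Ifit2, and Uba7 was not called (0.08, 95% interval -0.24 to 0.41). Within set A none was called at 2 h or 8 h, where 0.0626% and 0.0469% of genes were called higher. All 9 estimates in set A at 2 h were negative, from -0.98 to -0.14, and 2 had an unadjusted p below 0.05. The difference between the sets was called for 8 of 9 genes at 2 h, all but Herc6, where 1.84% of genes were called larger in set B. At 8 h it was called for 0 of 9 by edgeR, the tool used for it, with 1 gene at an unadjusted p below 0.05, where 3.43% of genes were called.

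The log2 rise with LPS was smaller in KO-labelled libraries of set B, which started higher. With all libraries, edgeR, DESeq2 and limma-voom called 0 of 9 for a difference in the 2 h or 8 h response, as edgeR did for 0% of all genes, and 3 of the 9 at 2 h and 6 at 8 h had an unadjusted p below 0.05, as did 1.18% and 4.17% of all genes. Within set B, the response was called smaller in KO-labelled libraries for 8 of 9 genes at 2 h, where 0.956% of genes were, and for 9 of 9 at 8 h, where 8.13% were. Ifit3 differed most at 8 h, by -4.25 ± 0.17, from a log2 rise of 4.28 ± 0.09 in KO-labelled and 8.53 ± 0.13 in WT-labelled libraries. Within set A, edgeR called 0 of 9 for the response at either time (0% of all genes), and 0 had an unadjusted p below 0.05. There the log2 rise of Ifit3 at 8 h was 7.63 ± 0.57 in KO-labelled and 7.46 ± 0.56 in WT-labelled libraries.

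Markers of other cells moved in part with these values. The summed level of 6 plasmacytoid dendritic cell genes in set B was 481 to 502 CPM for KO-labelled controls, against 237 to 254 CPM for WT-labelled ones. In set A it was 277 to 312 CPM for KO-labelled and 278 to 328 CPM for WT-labelled controls. Most of the set B difference was Bst2, itself interferon-induced, at 316 to 340.3 CPM for KO-labelled and 96.5 to 113 CPM for WT-labelled controls. Siglech, which defines these cells, was near 0 there, at 0.909 to 1.35 CPM for KO-labelled and 0.51 to 0.943 CPM for WT-labelled controls. The 7 neutrophil genes in set B summed to 77.96 to 88.4 CPM for KO-labelled controls, against 135 to 155 CPM for WT-labelled ones, and in set A to 46.6 to 53.0 CPM against 21.4 to 35.4 CPM. Ly6g was at most at 0.121 CPM in any control library. The 6 stromal genes in set B summed to 12.5 to 16.7 CPM for KO-labelled controls, against 31.8 to 35.7 CPM for WT-labelled ones, and in set A to 17.8 to 27.9 CPM against 18.03 to 38.7 CPM. The 7 erythroid and megakaryocyte genes in set B summed to 114 to 123 CPM for KO-labelled controls, against 169 to 171 CPM for WT-labelled ones, and in set A to 187 to 223 CPM against 118 to 205 CPM. Nearly all of this sum was Pf4, at 113 to 122 CPM for KO-labelled and 166 to 169 CPM for WT-labelled controls of set B. Marker sums also differed after LPS. The 6 dendritic cell genes summed to at most 2.19 CPM in controls. At 8 h in set B they summed to 51.5 to 52.6 CPM for KO-labelled and 36.5 to 39.0 CPM for WT-labelled libraries. In set A they summed to 9.62 to 13.0 CPM and 10.5 to 16.2 CPM. The plasmacytoid genes at 8 h summed to 1832 to 2005 CPM against 1115 to 1220 CPM in set B. In set A this was 1259 to 1407 CPM against 1308 to 1434 CPM. Nearly all of this sum was Bst2, Irf8 and Tcf4. Over both sets at 8 h these averaged 915, 442 and 265 CPM in KO-labelled and 796, 273 and 202 CPM in WT-labelled libraries. Siglech, Ccr9 and Ly6d were at most at 2.46, 3.54 and 2.24 CPM in KO-labelled and 1.77, 2.73 and 2.14 CPM in WT-labelled libraries. The part of these cells in the result was not tested.

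Of 15 genes of the signal upstream, edgeR called 1 higher in KO-labelled controls with all libraries, 7 within set B and 0 within set A, where 0 had an unadjusted p below 0.05. The shares of all genes called higher were 0.116% with all libraries, 7.04% in set B and 0.0469% in set A. Interferon beta (Ifnb1) peaked at 2 h, at 70.5, 68.3 and 73.6 CPM in set A and 139.7, 128 and 127 CPM in set B of KO-labelled libraries, and at 58.4, 55.2 and 75.6 CPM in set A and 29.0, 29.2 and 26.7 CPM in set B of WT-labelled libraries. Set B lay above set A under the KO label and below it under the WT label. In controls Ifnb1 was at most at 0.303 CPM where KO-labelled and at 0.0849 CPM where WT-labelled, and it did not pass the test between them (edgeR adjusted p = 1). Irf7, the interferon-induced factor that widens the interferon response, was the gene called with all libraries, by 2.97 ± 0.58 (edgeR adjusted p = 0.0314). In set B it was at 242, 233 and 243 CPM in the KO-labelled controls, against 8.92, 9.89 and 9.97 CPM in the WT-labelled ones. In set A it was at 24.9, 29.7 and 15.5 CPM in the KO-labelled controls, against 45.1, 15.6 and 11.3 CPM in the WT-labelled ones. In WT-labelled libraries 12 of the 15 rose and 1 fell at 2 h, beside 20.3% and 17.6% of all genes. At 8 h 13 rose and 1 fell, beside 34.2% and 37% of all genes. Ifnb1 rose by 10.01 ± 0.58 and Irf1 by 5.05 ± 0.22 at 2 h, Irf7 by 7.30 ± 0.71 and Ifnb1 by 6.47 ± 0.70 at 8 h, and Mavs, the adaptor of RNA sensing, fell at both times (-0.46 ± 0.08 and -0.32 ± 0.08).

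**Figure D5:**
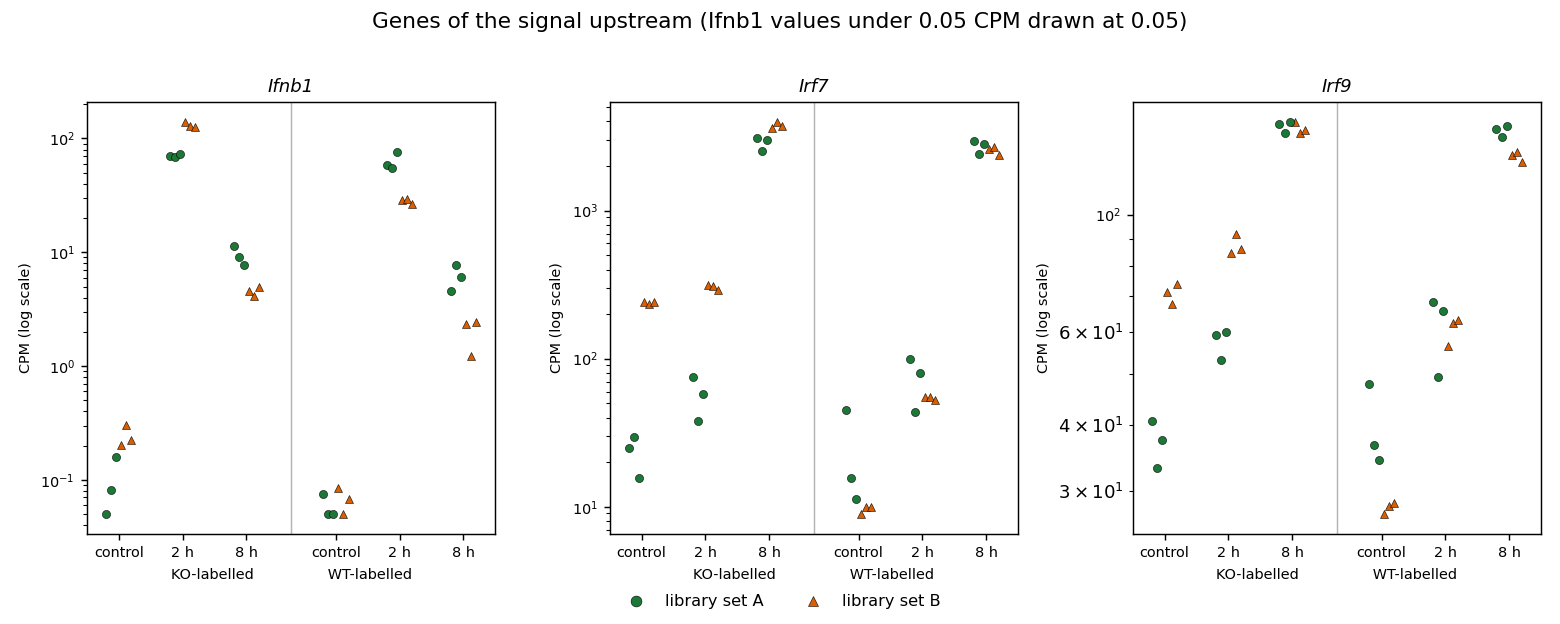
CPM of Ifnb1, Irf7 and Irf9 (log scale) in every library, KO-labelled groups left of WT-labelled ones, circles for set A and triangles for set B. Ifnb1 is highest at 2 h, and Irf7 in KO-labelled controls of set B lies at 233 to 243 CPM, against 8.92 to 9.97 CPM in the WT-labelled ones.

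At 8 h in WT-labelled libraries, genes related to the ISG15 enzymes rose less than any of these enzymes or fell, except Itgal. Of 20 genes of the wider cycle and of the ubiquitin system, 7 rose and 1 fell at 2 h, beside 20.3% and 17.6% of all genes. The largest 2 h rises were in Itgal (1.73 ± 0.25) and Usp16 (0.97 ± 0.08), both above Uba7 (0.55) and Ube2l6 (0.69). At 8 h 13 rose and 2 fell (median log2 fold change 0.63), beside 34.2% and 37% of all genes. Largest were Itgal, a subunit of the LFA-1 integrin that is reported to bind free ISG15 (4.36 ± 0.27), and Trim25, a ubiquitin ligase (1.961 ± 0.11), while Herc3 (-1.38 ± 0.15) and Usp14 (-0.40 ± 0.11) fell. Uba1, the ubiquitin counterpart of Uba7, rose by 0.92 ± 0.06 and Ube2l3, the nearest relative of Ube2l6, by 0.18 ± 0.05 at 8 h, where Uba7 rose by 4.04 ± 0.28 and Ube2l6 by 2.64 ± 0.20. Between KO-labelled and WT-labelled controls the 20 estimates ran from -0.16 (Herc2) to 0.29 (Trim25, edgeR adjusted p = 0.851, the smallest of the 20). Within set B 3 were called higher and 2 lower, beside 7.04% and 3.8% of all genes, with Trim25 the highest (0.54 ± 0.057). Within set A edgeR called 0, with 1 at an unadjusted p below 0.05.

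Of 14 names of Ifit relatives and partners, 11 were tested: 4 rose and 1 fell at 2 h, led by Ifit1bl1 (4.43 ± 0.63) and Eif3c (0.45 ± 0.09), and 6 rose and 3 fell at 8 h in WT-labelled libraries. Of all genes, 20.3% rose and 17.6% fell at 2 h, and 34.2% rose and 37% fell at 8 h. Ifit1bl1, a paralog in the same cluster, averaged 1019.5 ± 279 CPM at 8 h against 1.78 ± 1.10 CPM in controls under the KO label, and 633 ± 182 CPM against 0.265 ± 0.159 CPM under the WT label (SD, n = 6). Its log2 fold change in WT-labelled libraries was 11.23 ± 0.63 at 8 h, and Ifit1bl2 rose by 5.69 ± 0.51. Ttc39a (-2.36 ± 0.22) and Cmtr2, a cap methyltransferase (-0.62 ± 0.16), fell. Between KO-labelled and WT-labelled controls, Ifit1bl1 differed most, by 2.82 ± 0.71, which edgeR did not call (adjusted p = 0.111, the smallest of the 11). Ifit1bl1 differed by 3.48 ± 0.30 within set B (adjusted p = 9.98e-12), where 3 of the 11 were called higher and 1 lower, and by 1.81 ± 0.90 within set A (adjusted p = 1), where edgeR called 0 and 0 had an unadjusted p below 0.05. In set B 7.04% of all genes were called higher and 3.8% lower. Of 24 other interferon-stimulated genes, all 24 rose at 8 h in WT-labelled libraries (median log2 fold change 5.34), led by Cxcl10 (12.31 ± 0.45) and Gbp5 (11.43 ± 0.40). At 2 h 19 of them rose. Of all genes, 34.2% rose at 8 h and 20.3% at 2 h. In KO-labelled controls 5 were called higher than in WT-labelled controls, where 0.116% of all genes were: Oasl1 (2.83 ± 0.42), Rsad2 (2.03 ± 0.39), Cmpk2, Cxcl10 and Dtx3l. Within set B all 24 were called higher (median 2.37), where 7.04% of all genes were, among them Oasl1 (3.57 ± 0.095) and Rsad2 (3.29 ± 0.17). Within set A edgeR called 0 of the 24 (median -0.24), and 2 had an unadjusted p below 0.05, Cxcl10 (1.30 ± 0.37) and Oasl1 (1.03 ± 0.47).

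Genes near the 9 changed in both directions after LPS. Of 79 coding genes within 250 kb, 52 were tested, of which 17 rose and 6 fell at 2 h and 27 rose and 15 fell at 8 h in WT-labelled libraries (median log2 fold change 0.32). The share that rose was 32.7% at 2 h and 51.9% at 8 h, beside 20.3% and 34.2% of all genes tested. The share that fell was 11.5% at 2 h and 28.8% at 8 h, below the 17.6% and 37% of all genes. Besides the Ifit1 relatives, Ch25h, cholesterol 25-hydroxylase, rose by 5.66 ± 0.88 beside the Ifit genes, while Pank1, a pantothenate kinase gene in the same region, fell (-3.95 ± 0.30), as did Traip near Uba7 (-3.48 ± 0.37). Between KO-labelled and WT-labelled controls the smallest edgeR adjusted p of the 52 was 0.111, for Ifit1bl1. Within set B 7 of the 52 were called higher and 2 lower, beside 7.04% and 3.8% of all genes. Within set A edgeR called 0 of the 48 tested, with 1 at an unadjusted p below 0.05. The genes named here were picked as those furthest in each direction.

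Across the 36 libraries, log2 CPM of the 36 pairs of the 9 genes correlated with Pearson r from 0.785 to 0.995 (median 0.946), and with group means removed from 0.224 to 0.967 (median 0.800). These libraries share treatment, label and set, so the values describe them only. The gene most like Ifit1 was Mx2 (r = 0.998), and it remained so with group means removed (r = 0.959). With group means removed, the nearest were Irgm1 for Ifit2 (r = 0.968), Ddx58 for Ifit3 (0.958) and Ifit3b (0.975), Ifi211 for Isg15 (0.894), Irf7 for Usp18 (0.979), Oas1a for Ube2l6 (0.976), Mndal for Herc6 (0.948) and Trafd1 for Uba7 (0.931).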

How the data were processed

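RNA was sequenced in 36 mouse macrophage libraries. Each deposited file lists unnormalized read counts by Ensembl gene, which the authors made with HTSeq on mm10, per the submitters' processing notes. No source used here gives the aligner, annotation, HTSeq version or strand setting. Of 54232 identifiers, 54165 were found in GENCODE M21, used for symbols, positions and exon lengths, and 67 kept their identifiers. Rows naming no gene numbered 0. Groups came from the genotype, treatment and time labels, and replicate numbers follow accession order and only name a library.

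The counts went into edgeR 4.0.16 (R 4.3.3), with filterByExpr on the 6 groups (12957 genes), TMM library sizes, and a robust quasi-likelihood fit with 1 mean per group over all 36 libraries. Each of 11 contrasts was tested with Benjamini-Hochberg adjustment over all genes tested. CPM is the usual count rate per TMM-scaled library size, and values per kb divide by the union of annotated exons. SE was derived from the F statistic, and 95% intervals use the t quantile at the fit's degrees of freedom. Fits to set A or B alone used the same steps. The genes of interest and the lists were chosen with earlier results of these data known. All 9 genes are named. Of each list the rule was to name the 2 called genes with the largest log2 fold change in each direction, after LPS in WT-labelled libraries and between labels in controls, with fixed upstream factors and enzyme relatives; some named items are not reported here. For likeness the rule kept the 3 nearest genes by Pearson r, of which the nearest is printed. The fit was tested on simulated data. DESeq2 1.42.0 and limma 3.58.1 (voom) served as alternatives, beside other scalings, filters and left-out libraries. Replicates of a group differed by more than counting noise, so none were merged. Depth limits the precision for genes at low counts, such as Ifnb1 in controls.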

Additional observations from a re-analysis of the deposited data

Results flagged for a closer look

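In 54 groups of 6 libraries (9 genes in 6 groups), 3 had a library whose gap to its nearest neighbour took a larger part of the group's range than Dixon's critical value allows. Chance gives about 1 in 20, and 3 of 54 is near that share. All 3 were WT-labelled control replicate 1, a set A library with 0 Ddx3y counts. It was the highest of its group for Ifit3 (20.4 CPM, next 6.51 CPM), for Isg15 (17.97 CPM, next 8.86 CPM) and for Usp18 (20.2 CPM, next 8.74 CPM). These 3 genes correlated with group means removed (r from 0.835 to 0.872), so this library does not give 3 separate outliers. Without this library, 5 of the 9 genes were called higher in controls with the KO label, against 3 with it. The share of all genes called without it is not given here.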

How the results depend on the processing

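No paired analysis was possible because the labels carry no replicate numbers, and those used here follow accession order and pair no libraries. The counts of genes called after LPS stayed within 1.5 times of those reported under every alternative run. Leaving out each library gave 6 to 7 for KO-labelled 2 h, 8 to 9 for WT-labelled 2 h, 9 at 8 h and between 8 h and 2 h under both labels, and 0 for both later label differences and both response differences. For KO-labelled against WT-labelled controls (3 called) it gave 0 to 5. There the number was 0 with no filter on low counts, with limma-voom, with only the compared groups fitted and in set A alone, 1 with the library set as a term, 6 without the WT-labelled libraries with 0 Ddx3y counts, 7 with DESeq2 and 9 in set B alone. The causes were not tested, beyond fewer libraries in some fits. Apart from the fits to set A or B alone, no share of all genes called is given for these alternatives. Set B alone gave 9 at 2 h, 8 at 8 h, and 8 and 9 for the 2 h and 8 h response differences, in place of 0.

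Direction changed mostly in set A alone. In KO-labelled against WT-labelled controls the log2 difference there was -0.11 for Ifit1, -0.11 for Ifit3, -0.079 for Ifit3b, -0.42 for Isg15, -0.81 for Usp18, -0.19 for Ube2l6 and -0.11 for Herc6. At 2 h it was -0.37 for Ifit1, -0.57 for Ifit2, -0.60 for Ifit3, -0.79 for Ifit3b, -0.25 for Isg15, -0.98 for Usp18, -0.33 for Uba7 and -0.14 for Ube2l6, and at 8 h -0.038 for Isg15 and -0.10 for Usp18. The response difference there was 0.17 for Isg15 and 0.057 for Ube2l6 at 2 h, and at 8 h 0.30 for Ifit1, 0.17 for Ifit3, 0.19 for Ifit3b, 0.38 for Isg15, 0.71 for Usp18, 0.25 for Ube2l6 and 0.16 for Herc6. Herc6 between labels at 2 h was 0.40 in set B alone and 0.16 without the 0-Ddx3y libraries, and ran from -0.20 to 0.16 as each library was left out. Uba7 between labels at 8 h ran from -0.0069 to 0.14 in that way, and its KO-labelled 2 h change was -0.035 with library totals alone.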
